A study of Schizosaccharomyces pombe with 8 samples.

Results

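The 346 regions described here are non-coding transcription units (nc-TUs) of fission yeast that lie outside genes. They were taken from the 487 entries of the type nc-TU on chromosomes I, II and III, and a unit was kept when less than 50% of its length lay within any 1 gene on the same strand. The other 141 units had 50% or more of their length within a gene on their own strand, and 9111 features of all kinds were kept in the tables. NET-seq was performed on Rpb3-flag cells, in which a flag tag on the Rpb3 subunit allows RNA polymerase II (RNAPII) to be immunoprecipitated with the RNA it is making. The cells were either untreated or grown for 2.5 h in 20 µg/ml trichostatin A (TSA), an inhibitor of histone deacetylases (HDACs), and both groups carry the tagged subunit and received lysate of Rpb3-flag S. cerevisiae as a spike at 1 part to 50. Each group consisted of 2 biological replicates, each with an immunoprecipitated (IP, nascent RNA) library and an input library of the lysate, 8 libraries in all.

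Non-coding transcription is pervasive in fission yeast, since RNAPII can initiate in accessible chromatin away from gene promoters, also on the strand opposite a gene. HDACs remove acetyl groups from histone tails, and deacetylation behind elongating RNAPII is known in yeasts for keeping cryptic and antisense start sites closed. Most transcripts made from such sites are degraded quickly by the nuclear exosome or by the 5′ to 3′ exonuclease of the cytoplasm, for which the Xrn1-sensitive unstable transcripts (XUTs) are named, so they are better seen in nascent RNA than in total RNA.

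Of the 346 units, 282 were antisense to a gene, meaning that 50% or more of their length lay within 1 gene on the other strand. A further 8 overlapped such a gene over less than 50% of their length, and 56 had no gene on the other strand. The units were short, from 201 to 2889 nt with a median of 344 nt, and 177, 99 and 70 of them lay on chromosomes I, II and III. Of the antisense units, 253 lay completely within the gene opposite, and 205 had at least 90% of their length opposite coding sequence. A XUT was annotated on the same strand for 80 units, whereas 257 shared their strand with no other feature. Just inside the overlap limit were novelncTU_290 (48.1% within a gene on its strand) and novelncTU_306 (30.3%), and just outside it was novelncTU_210 (58.5%).

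The sequences that follow show what these units are and were read from the RefSeq ASM294v3 genome at the positions in the files. The positions suit that genome, as 5113 of 5119 coding sequences listed in the files were open frames from ATG to a stop codon in it. The first set shows the 5′ ends of the units with the most nascent reads, with the bases of a spliceosomal RNA, as RefSeq places it, in capitals. They are at I:959488-959567 (minus strand), II:3236872-3236951 (plus strand) and II:467532-467611 (minus strand).
novelncTU_268: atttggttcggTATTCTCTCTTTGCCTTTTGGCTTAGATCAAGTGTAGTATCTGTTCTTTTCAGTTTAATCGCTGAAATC
novelncTU_182: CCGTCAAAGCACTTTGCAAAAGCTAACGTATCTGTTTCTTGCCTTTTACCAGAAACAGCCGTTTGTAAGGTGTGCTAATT
novelncTU_372: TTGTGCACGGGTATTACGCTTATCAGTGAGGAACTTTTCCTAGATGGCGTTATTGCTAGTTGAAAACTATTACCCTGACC

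The second set shows the first 100 bases opposite coding sequence, in capitals, of the units that fell most in TSA, antisense to pgk1, eno101 and tdh1. They lie at II:4158172-4158271 (plus strand), II:2202134-2202233 (minus strand) and II:2808548-2808647 (minus strand).
novelncTU_201: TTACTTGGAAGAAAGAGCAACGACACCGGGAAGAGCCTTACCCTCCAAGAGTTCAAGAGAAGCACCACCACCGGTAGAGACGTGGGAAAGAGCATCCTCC
novelncTU_404: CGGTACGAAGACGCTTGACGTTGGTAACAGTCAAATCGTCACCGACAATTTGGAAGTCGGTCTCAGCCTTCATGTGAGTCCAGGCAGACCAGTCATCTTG
novelncTU_412: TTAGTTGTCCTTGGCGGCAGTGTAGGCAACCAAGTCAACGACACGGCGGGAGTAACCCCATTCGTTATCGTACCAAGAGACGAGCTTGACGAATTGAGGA

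A single line shows the same stretch of the antisense unit that rose in TSA, opposite pcl1 at II:164713-164812 (plus strand).
novelncTU_129: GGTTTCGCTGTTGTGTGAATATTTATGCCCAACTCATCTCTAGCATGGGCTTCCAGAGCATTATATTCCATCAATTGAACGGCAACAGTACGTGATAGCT

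The remaining lines show the 5′ ends of units with no gene opposite, first those that fell and then those that rose on the spike-in or total-read scale. Capitals mark TNAAAC, the core of the sequence bound by the RNA elimination factor Mmi1, searched on the unit's own strand. The falling units are at II:4351530-4351649 (minus strand), II:1308022-1308141 (minus strand) and I:2394487-2394606 (plus strand).
novelncTU_430: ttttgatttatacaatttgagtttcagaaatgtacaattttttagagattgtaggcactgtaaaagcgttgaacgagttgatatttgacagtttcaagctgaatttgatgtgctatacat
novelncTU_391: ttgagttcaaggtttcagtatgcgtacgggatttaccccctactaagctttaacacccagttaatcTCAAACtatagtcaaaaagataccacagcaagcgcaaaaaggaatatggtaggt
novelncTU_40: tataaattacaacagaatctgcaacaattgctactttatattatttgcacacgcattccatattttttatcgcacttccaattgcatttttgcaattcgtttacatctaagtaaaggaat

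The rising units with no gene opposite are at II:1455390-1455509 (plus strand), I:2322855-2322974 (minus strand) and II:950337-950456 (minus strand).
novelncTU_147: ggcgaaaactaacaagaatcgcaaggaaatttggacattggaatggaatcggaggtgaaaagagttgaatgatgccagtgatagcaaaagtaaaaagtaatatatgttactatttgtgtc
novelncTU_290: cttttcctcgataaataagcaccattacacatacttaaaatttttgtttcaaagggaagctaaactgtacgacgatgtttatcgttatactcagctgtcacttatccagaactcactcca
novelncTU_386: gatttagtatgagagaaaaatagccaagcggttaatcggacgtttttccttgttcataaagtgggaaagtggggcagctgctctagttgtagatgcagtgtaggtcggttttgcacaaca

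The classes differed in base composition, with a median GC content of 42.2% for antisense units and 34.2% for units with no gene opposite, against 36.5% over all kept features of 200 nt or more. Of the 6 printed 5′ ends with no gene opposite, that of novelncTU_391 carried TNAAAC.

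Sequencing depth limited what could be measured on most units. Reads over all kept features numbered between 7218671 and 10436194 in the IP libraries and between 8104143 and 12591213 in the inputs, and the median gene had 245 to 427 reads in the IP. In contrast, the median unit had 9 to 14 reads in the IP libraries and 0 to 1 in the inputs. In the inputs, 133 to 179 of the 346 units had no read, compared with 4 to 20 in the IP. In such bulk libraries, a unit transcribed in fewer cells and a unit transcribed less in every cell cannot be told apart.

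Reads on the units were dominated by stable RNA. A total of 5 units overlapped a small nuclear or small nucleolar RNA on their strand, and together with these the units took 21.7% and 12.6% of all nascent reads in untreated cells and 10.4% and 17.4% in TSA cells. Without them, the remaining 341 units took 0.166% and 0.211% in untreated cells and 0.246% and 0.190% in TSA cells, and 0.0671% to 0.0848% of the input. The groups overlapped in the nascent RNA with and without these units, and an exact two-sided permutation test gave p = 0.667 in both cases. Its smallest possible p with 2 libraries against 2 is 0.33.

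The highest levels per nt belonged to units that contain a spliceosomal RNA. For novelncTU_268, which contains the U2 RNA gene snu2, 2009312 and 979359 nascent reads were counted in untreated cells and 687898 and 1089257 in TSA cells. Nearly all of them fell within snu2, and 971, 1461, 716 and 688 reads of these libraries lay on the rest of the unit. The untreated and TSA libraries overlapped, and the change did not pass the test (log2 -0.84 ± 0.87 SE on the spike-in scale, adjusted p = 0.490).

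novelncTU_182 starts within snu5, which encodes the U5 RNA, and had 215361 and 224686 reads in untreated and 144012 and 114645 reads in TSA cells. novelncTU_372 had 25066 and 81823 reads in untreated cells and 49355 and 33858 in TSA cells. The files place snu4, the U4 RNA gene, at II:467233-467361, where 185 to 422 of those reads lay in each IP library, whereas RefSeq places it at II:467489-467615, over the 5′ end of the unit. The changes of both units missed the threshold (adjusted p = 0.231 and 0.631, spike-in scale). novelncTU_269, which shares its strand with the U3 RNA gene snu3, had 1315 and 1970 reads against 2640 and 1255.

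The other 4 units among the 8 with the highest nascent level per nt had no gene opposite. Among them, novelncTU_468 lies opposite a small nucleolar RNA and had 3481 and 4938 nascent reads in untreated and 8235 and 3170 in TSA cells. It differed from most units in the input, where it had 1659 to 3861 reads in each library. novelncTU_449 and novelncTU_410, opposite the ncRNAs SPNCRNA.475 and SPNCRNA.403, were also abundant in the input, with 1456 to 2383 and 1283 to 3618 reads. In novelncTU_312, which overlaps XUT0670, there were 764 and 881 nascent reads in untreated cells, 600 and 575 in TSA cells and only 41 to 62 input reads. None of these 4 units was called in any of the comparisons.

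**Figure D1:**
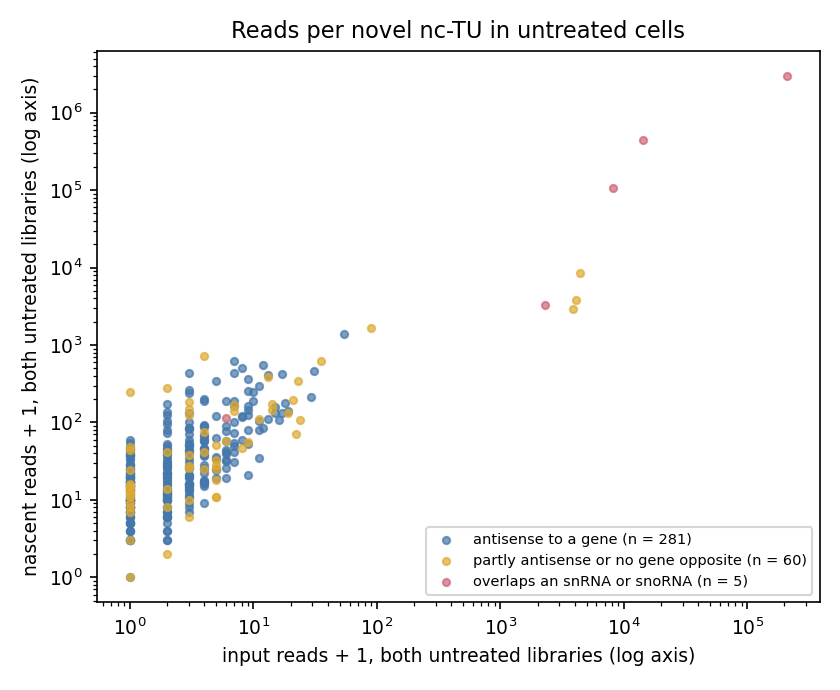
Nascent reads plotted against input reads for each of the 346 units, both as the sum of the 2 untreated libraries plus 1 on log axes. Units that overlap a small nuclear or small nucleolar RNA (5) and 3 units with no gene opposite hold most of the reads, and the antisense units form the cloud at the lower left, with a median of 10 and 12 nascent reads in the 2 libraries.

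Levels of the other units were low. The median untreated nascent level, on the total-read scale, was 20.9 normalised reads per kb for antisense units and 32.8 for units with no gene opposite, compared with 26.7 for annotated ncRNA genes, 17.3 for XUTs and 126 for protein-coding genes. No input read was found in any of the 4 inputs for 45 of 282 antisense units (16.0%) and 4 of 56 units with no gene opposite (7.14%). The same held for 6.11% of annotated ncRNA genes, 8.36% of XUTs and 1.54% of protein-coding genes. These classes are longer, with medians of 1070, 553 and 1889 nt (features of 200 nt or more) compared with 344 nt for the units. In untreated cells the median log2 ratio of nascent to input RNA was 3.25 and 3.40 in the 2 cultures over the 67 antisense units that could be tested, and 3.16 and 2.87 over 33 units with no gene opposite. Protein-coding genes had medians of 2.48 and 2.63, annotated ncRNA genes 3.38 and 3.46, and XUTs 3.16 and 3.23. A constant was added to nascent and input values before the ratio was taken. This draws the ratios of features with few reads towards a common value. The ratios also cover only features above the filter in both nascent and input RNA. These were 67 of 282 antisense units and 33 of 56 units with no gene opposite. They were 1056 of 1522 annotated ncRNA genes, 703 of 1638 XUTs and 4961 of 5129 protein-coding genes. Units with few input reads were thus left out more often, so these medians are not directly comparable between classes.

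The effect of TSA on nascent transcription was first compared on the spike-in scale, where reads are scaled to S. cerevisiae ribosomal protein genes. The change was tested with limma on log2 of the normalised reads plus 6, and a unit was called when its adjusted p was under 0.05 and its change 2-fold or more. Of the 346 units, 207 exceeded the filter on low values. Of these, 38 fell and 1 rose, compared with 6.31% falling and 2.1% rising of all 8052 features tested. The median change was -0.39 for the units and -0.42 for all features, so that the medians were close with 6 added. Their order depended on the processing. With a smaller added constant the units had a median of -0.50 against -0.45 for all features. With edgeR and with DESeq2 it was -0.53 against -0.46. With a larger constant it was -0.22 against -0.34, and without the filter -0.30 against -0.38. In the main comparison the units also differed from all features in the lower tail. The falls were measured on few reads, between 38 and 789 summed over the 4 IP libraries, and 23 of the 38 units had fewer than 200. limma shrank the variances of this comparison completely to a common trend, so that the test added almost nothing to the 2-fold limit (38 units were 2-fold lower before the test). Calls moved when a library was left out, where the lone library of a group is assumed to vary like the other group. Without TSA replicate 1 none of the units was called and falls over all features went from 508 to 3, although the 12 named falls stayed beyond 2-fold (log2 -1.69 to -1.09). Without untreated replicate 2, 58 units and 1369 features fell, without untreated replicate 1, 17 units did, and without TSA replicate 2, 12 did.

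On the total-read scale, where each library is scaled to its own mapped reads, 208 units were tested, of which 17 fell and 4 rose. Here too limma shrank the variances completely to a common trend. The test removed no unit, since 17 were 2-fold lower and 4 were 2-fold higher before it. Over all 8062 features tested, 0.843% fell and 4.45% rose on this scale. The median change was -0.04 for the units and 0.03 for all features. All 17 falls had also been called on the spike-in scale. Leaving out any 1 library left between 12 and 25 falls, with 12 when TSA replicate 1 was left out.

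The split by the strand opposite showed where the falls were. On the spike-in scale 34 of 161 tested antisense units fell (21.1%) and 1 rose, 1 of 6 partly antisense units fell, and 3 of 40 units with no gene opposite fell (7.50%). On the total-read scale 14 of 161 antisense units fell (8.70%) and 1 rose, whereas 2 of 41 units with no gene opposite fell and 3 rose. For annotated ncRNA genes, 8.20% fell and 2.88% rose on the spike-in scale, and 1.52% and 7.2% did so on the total-read scale. XUTs fell in 5.06% and rose in 5.24% of cases with spike-in scaling and in 0.882% and 10.2% with total-read scaling. No test of the difference between these classes was made.

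**Figure D2:**
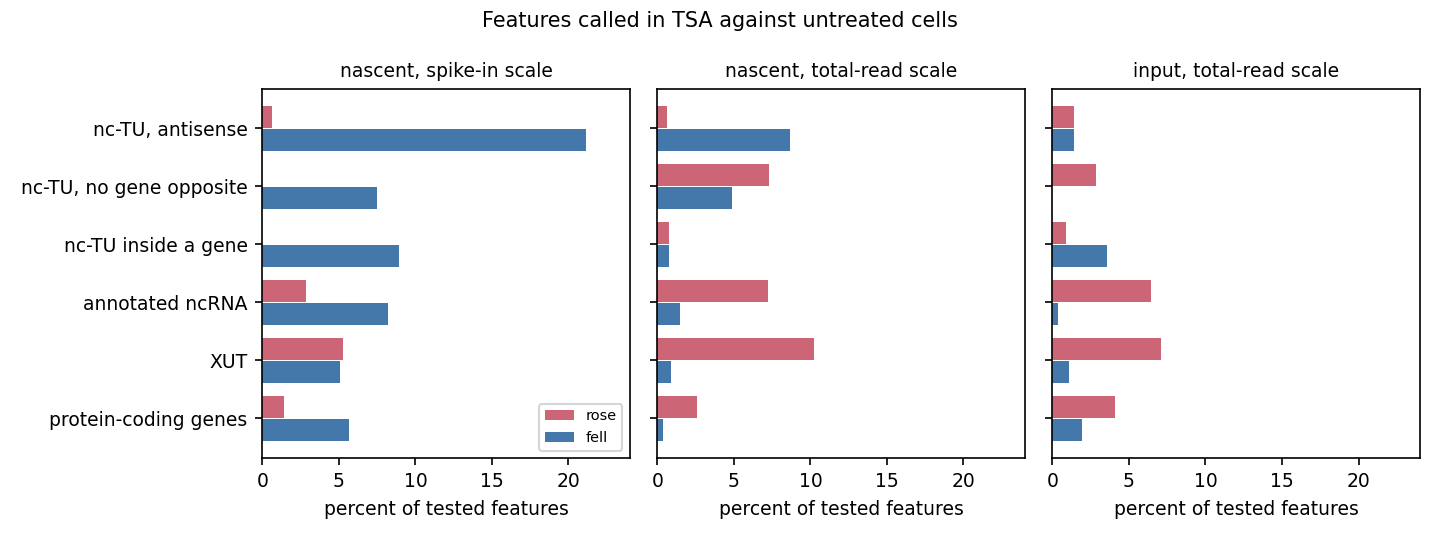
Percent of tested features that rose or fell in TSA cells, by feature class, for nascent RNA on both scales and for the input (adjusted p under 0.05 and 2-fold or more). Bars for antisense nc-TUs reach 21.1% falling (spike-in scale) and 8.70% falling (total-read scale).

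The units with the largest falls lay opposite genes that are among the most strongly transcribed of the cell. How reads were assigned to strands is not given in the sources used here. novelncTU_201 is antisense to pgk1, which encodes phosphoglycerate kinase of glycolysis and ranked 11 of 5129 genes by untreated nascent level per nt. On the spike-in scale it had 192 and 95.2 normalised reads in untreated cells and 13.2 and 50.9 in TSA cells, which corresponds to 144 ± 68.5 and 32.1 ± 26.6 (SD, n = 2). Both TSA libraries lay below both untreated libraries, as in all 38 units that fell. The change was 4.28-fold (log2 -2.10 ± 0.34 SE, limma adjusted p = 1.24e-07). The call was lost with DESeq2 (adjusted p = 0.0893) and under 2 other scalings (adjusted p = 0.0522 and 0.0502). The nascent level of pgk1 itself changed by log2 -0.22 and was not called (adjusted p = 0.700).

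novelncTU_412 is antisense to tdh1, which encodes glyceraldehyde-3-phosphate dehydrogenase and ranked 2 of 5129. Its values were 313 and 171 normalised reads in untreated cells and 30.4 and 88.1 in TSA cells. The groups did not overlap, and the fall was 4.06-fold (log2 -2.02 ± 0.32, adjusted p = 8.53e-08), while tdh1 changed by log2 0.14 (adjusted p = 0.850). With DESeq2 the fall of the unit missed the threshold (adjusted p = 0.0563). The level per nt of the antisense unit was 0.647% and 0.445% of that of tdh1 in untreated cells and 0.0551% and 0.215% in TSA cells, a ratio that does not depend on the scaling of the libraries.

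novelncTU_404, antisense to the enolase gene eno101 (ranked 4), had 165 and 97.9 normalised reads in untreated and 16.6 and 40.4 in TSA cells, and fell 4.12-fold (log2 -2.04 ± 0.34, adjusted p = 3.38e-07). Its level was 0.872% and 0.721% of that of eno101 in untreated cells, compared with 0.140% and 0.327% in TSA cells. novelncTU_450, antisense to the triose-phosphate isomerase gene tpi1, had 71.0 and 27.4 against 4.97 and 9.70 and fell 3.86-fold (adjusted p = 5.04e-06). In each of these units all TSA values were below all untreated values.

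Glycolysis and fermentation genes had 9 antisense units in all, a group named after its values were seen. Of these, 8 were tested, and 6 fell with spike-in scaling and 5 with total-read scaling. Besides the units opposite pgk1, tdh1, eno101 and tpi1, they were novelncTU_397 opposite the aldolase gene fba1 (122 and 62.9 normalised reads against 12.7 and 34.8, 3.40-fold, adjusted p = 3.43e-05) and novelncTU_122 opposite the phosphoglycerate mutase gene gpm1 (log2 -1.19, adjusted p = 0.0110). novelncTU_77 opposite the pyruvate kinase gene pyk1 had 49, 50, 33 and 34 reads and did not pass the test (adjusted p = 0.213). novelncTU_1, 1 of 2 units opposite the pyruvate decarboxylase gene pdc101, had 6, 7, 9 and 13 reads in untreated 1, untreated 2, TSA 1 and TSA 2 and was not called either (adjusted p = 0.536).

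Other large falls were opposite ght5, ole1 and rps2. novelncTU_437 lies opposite ght5, a hexose transporter gene (ranked 213), and had 98 and 36.1 normalised reads in untreated cells against 7.18 and 18.6 in TSA cells (3.68-fold, adjusted p = 1.13e-05). novelncTU_223 overlaps ole1, the fatty acid desaturase gene, partly and had 128 and 66.2 against 18.2 and 26.7 (3.50-fold, adjusted p = 1.84e-05), with no read in any input. novelncTU_242, opposite rps2 of the small ribosomal subunit, had 77.0 and 52.5 against 11.0 and 21.8 (3.20-fold, adjusted p = 1.29e-04), and it was the only 1 that fell of 3 tested units opposite ribosomal protein genes. None of these 3 units overlapped between groups, and the nascent RNA of ght5, ole1 and rps2 was itself not called on the spike-in scale (adjusted p = 0.666, 0.310 and 0.215) or the total-read scale. In the input, ght5 rose (log2 2.05, adjusted p = 8.11e-08), whereas ole1 and rps2 were not called.

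Further named falls were opposite genes that ranked lower. novelncTU_172 is antisense to ero11, a gene for oxidative folding in the endoplasmic reticulum that ranked 313 (percentile 93.9), and fell from 266 and 156 to 46.4 and 93.0 normalised reads (2.92-fold, adjusted p = 1.29e-04). novelncTU_76, opposite SPAC4H3.03c (ranked 2137), fell from 51.0 and 37.2 to 12.7 and 9.70 (2.90-fold, adjusted p = 7.34e-04) and shares its strand with XUT1508. novelncTU_135, opposite new20 (ranked 2256), fell from 149 and 81.5 to 35.3 and 33.9 (2.87-fold, adjusted p = 4.54e-04). The gene new20 itself had 94 and 62.9 normalised reads in untreated cells and 55.2 and 350.0 in TSA cells, so that the TSA libraries lay on either side of the untreated ones. Its change was not called with spike-in scaling (log2 0.83, adjusted p = 0.0574) and was called higher with total-read scaling (log2 1.28). The antisense level went from 155% and 127% of that of new20 to 62.6% and 9.49%.

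Among the 34 antisense units that fell, the nascent RNA of the gene opposite was called lower in 1 case and higher in none on the spike-in scale, with a median change of log2 -0.44 for the genes and -1.29 for the units. With total-read scaling it was called higher for 1 unit (opposite new20) and lower for none, and in the input the gene opposite was called higher for 3 units (opposite ght5 and SPAC4H3.03c) and lower for none. Over the 161 tested antisense units, the changes of unit and gene had a Pearson r of -0.14, and the change of the unit had an r of -0.35 with the log10 untreated level of the gene. These points come from the same 4 libraries and are not independent, so that the correlations are given as descriptions.

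**Figure D3:**
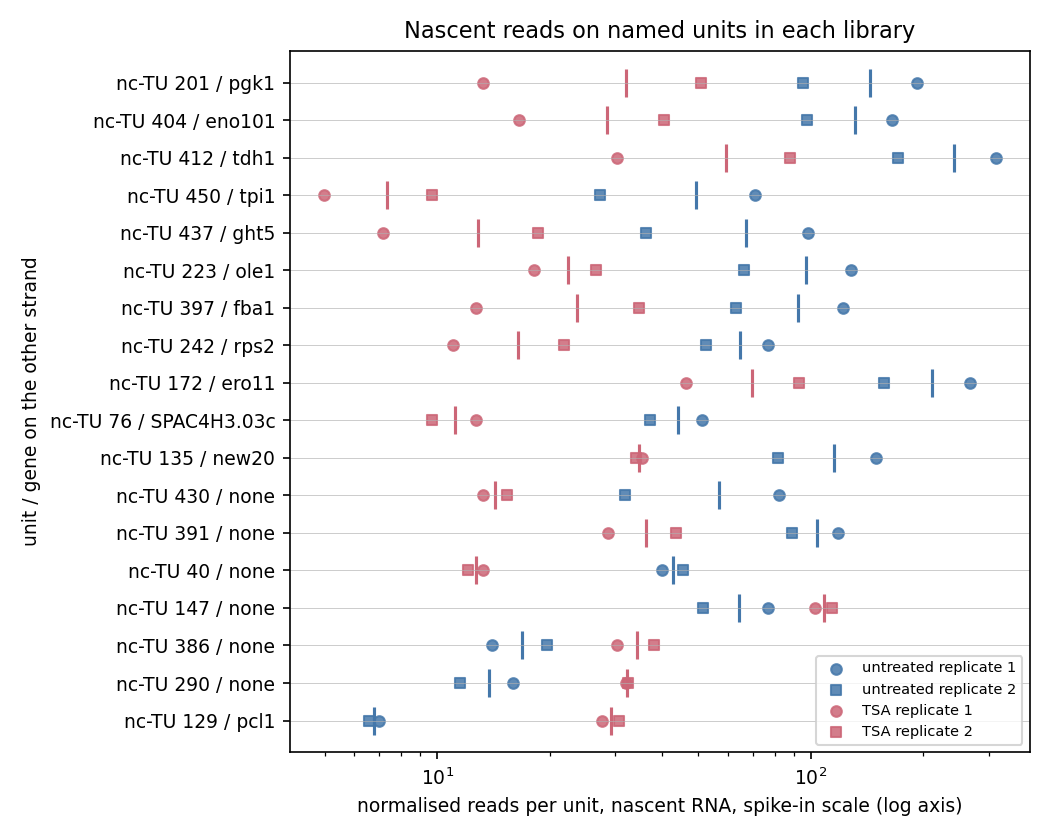
Normalised nascent reads (spike-in scale, log axis) of 18 named units in each of the 4 IP libraries, with the gene on the other strand beside the unit's number, and vertical ticks at the group means. In the upper 14 units both TSA libraries lie below both untreated libraries, and in the lower 4 both lie above.

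The relation to the level of the gene opposite was then described by grouping the antisense units, with limits set after the values had been seen. Antisense units lay mostly opposite well transcribed genes, as the median gene opposite was at percentile 76.0 of all genes, and 35 of 282 units (12.4%) lay opposite the top 2% of genes. The units that fell had a gene at a median percentile of 97.2, and the antisense units that were tested and not called one at 60.9. Of the 27 tested units opposite the top 2% of genes, 15 fell with spike-in scaling and 9 of 26 with total-read scaling. For genes between percentiles 90 and 98, 6 of 23 fell with spike-in scaling and 3 of 24 with total-read scaling. For genes between percentiles 50 and 90 these counts were 6 of 61 and 2 of 61, and below percentile 50 they were 7 of 50 and 0 of 50.

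Summed over the 35 units opposite the top 2% of genes, 1846 and 1918 nascent reads were counted in untreated cells and 654 and 964 in TSA cells. Taken per nt, this was 1.01% and 0.741% of the reads on the genes opposite in untreated cells and 0.252% and 0.602% in TSA cells. The 2 groups did not overlap, but the TSA replicates differed from each other by more than the untreated ones. In the input of the same cultures the units had 36 and 47 reads in untreated and 53 and 30 in TSA cells, and 0.0486%, 0.0708%, 0.0526% and 0.0465% of the level of the genes. None of these 35 units shared its strand with another feature.

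Opposite genes between percentiles 90 and 98 the nascent share was 2.64% and 2.11% in untreated cells and 1.22% and 2.02% in TSA cells, and the groups again did not overlap. Between percentiles 50 and 90 it was 14% and 13.7% against 11.7% and 12.9%, but over the 83 of these 115 units with no other feature on their strand it was 9.92% and 9.14% against 9.67% and 11.9%, where the groups overlapped. Falls on the spike-in scale were 1 of 36 tested in these 83 units. Below percentile 50 the untreated values of 73.4% and 51.9% overlapped the TSA values of 45.3% and 57.9%. On the spike-in scale the summed reads changed by log2 -1.34, -1.0, -0.69 and -0.77 from the top group to the lowest (-1.34, -1.05, -0.39 and -0.59 for units with no other feature on their strand), whereas the sums of the genes opposite changed by -0.34, -0.46, -0.59 and -0.43. Of the 26 genes opposite the top group, none was called.

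Other antisense features opposite the same strongly transcribed genes were few. Of 3 XUTs opposite the top 2% of genes, 2 fell on the spike-in scale, and of 5 annotated ncRNA genes 3 did, compared with 42 of 752 tested antisense XUTs and 51 of 696 tested antisense ncRNA genes in all. The median gene opposite was at percentile 35.4 for antisense XUTs and 36.3 for antisense ncRNA genes.

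**Figure D4:**
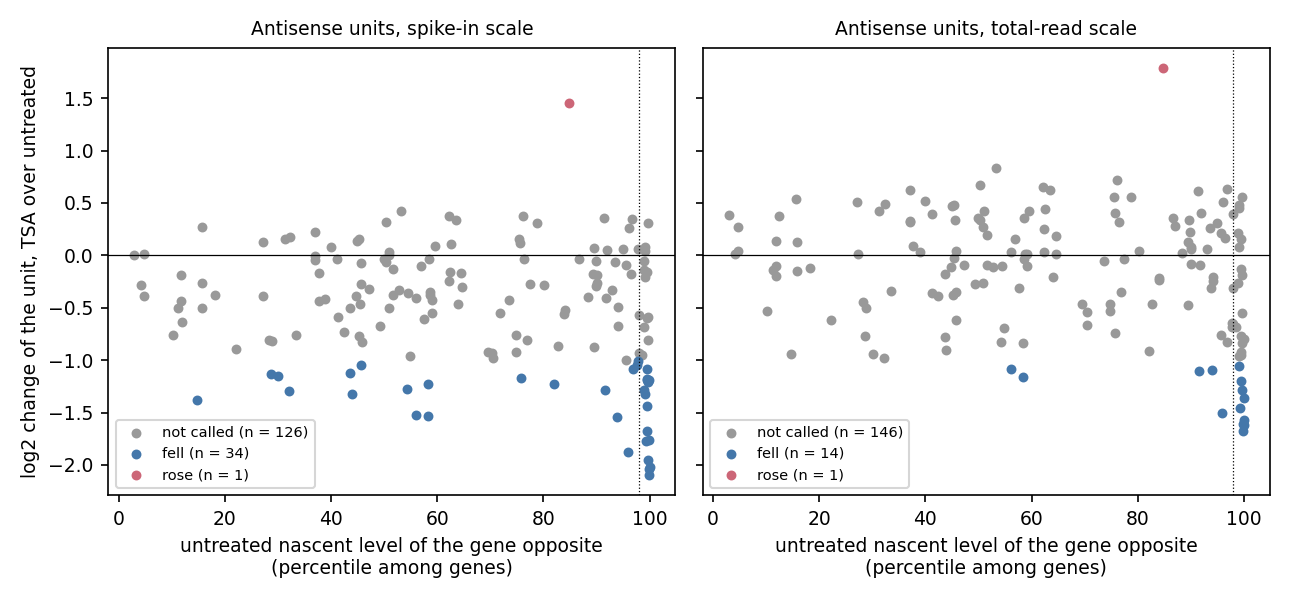
Log2 change of each tested antisense unit in TSA over untreated cells, on the spike-in scale (left) and the total-read scale (right), against the percentile of the untreated nascent level of the gene opposite. The dotted line marks percentile 98, beyond which 15 of the 34 falls (left) and 9 of the 14 falls (right) are found.

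**Figure D5:**
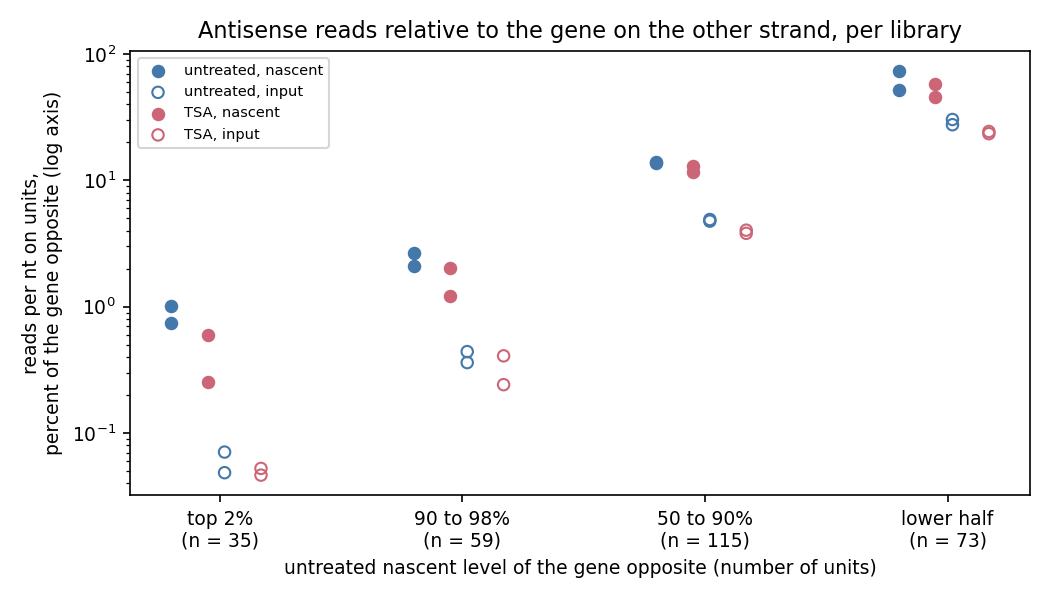
Reads per nt on antisense units as percent of the reads per nt on the genes opposite (log axis), per library, for 4 ranges of the untreated level of those genes. Filled points are nascent RNA and open points input; in the top 2% the nascent share is 0.741% to 1.01% in untreated and 0.252% to 0.602% in TSA cells, and the input share is below 0.1% in every library.

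The units were also grouped by position. Counted from the start of the gene, the 5′ end of the unit lay past 66.7% of the gene's length for 140 of 282 antisense units, between 33.3% and 66.7% for 95 and before 33.3% for 47. Falls on the spike-in scale numbered 21 of 105 tested, 11 of 42 and 2 of 14 in these groups. A gene of the other strand started within 500 nt upstream of 53 units, as at divergent promoters, and of 45 tested 3 fell and none rose on the spike-in scale. Units that overlapped a XUT fell in 8 of 59 cases and the others in 30 of 148.

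The single unit that rose on the spike-in scale was novelncTU_129, which lies within the coding sequence of pcl1, a vacuolar iron transporter gene, on the other strand. It had 7.0 and 6.56 normalised reads in untreated cells and 27.6 and 30.7 in TSA cells, from 7, 12, 50 and 38 reads. The groups did not overlap, and the rise was 2.75-fold with spike-in scaling (log2 1.46 ± 0.35, adjusted p = 0.00159) and log2 1.79 on the total-read scale (adjusted p = 2.92e-08). pcl1 itself was not called (log2 -0.59, adjusted p = 0.134), and the unit went from 6.85% and 8.14% of the level of pcl1 to 46.7% and 50.4%. With a single TSA library the change was of similar size but missed the threshold (log2 1.52, adjusted p = 0.161 without replicate 1; log2 1.39, adjusted p = 0.174 without replicate 2), and with 4 times the pseudocount it was below 2-fold (log2 0.79).

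On the total-read scale 3 further units rose, none with a gene opposite, which were named after their values were seen. novelncTU_290 had 16, 21, 58 and 40 reads in untreated 1, untreated 2, TSA 1 and TSA 2 (log2 1.34, adjusted p = 4.24e-05), and novelncTU_386 had 14, 36, 55 and 47 reads (log2 1.18, adjusted p = 3.87e-04). novelncTU_147 had 77, 94, 186 and 141 reads (log2 1.18, adjusted p = 1.02e-04). It starts 56 nt after the end of the gene SPBC32H8.15 on its strand and overlaps XUT1059. novelncTU_290 overlaps XUT0590 and has 48.1% of its length within the gene SPAC13G7.13c on its own strand, with which it shares reads. On the spike-in scale all 3 were higher in both TSA libraries than in both untreated libraries, with changes of log2 0.96, 0.82 and 0.73 that were below the 2-fold limit.

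In turn, 3 units with no gene opposite fell on the spike-in scale. novelncTU_430, which starts 160 nt upstream of the ribosomal protein gene rpl3201 on the other strand, went from 82.0 and 31.7 to 13.2 and 15.4 normalised reads (2.84-fold, adjusted p = 8.69e-04). novelncTU_391 went from 118 and 89.2 to 28.7 and 43.6 (2.62-fold, adjusted p = 0.00164), and novelncTU_40 from 40.0 and 45.4 to 13.2 and 12.1 (2.60-fold, adjusted p = 0.00289). The groups did not overlap in any of the 3, and novelncTU_430 lost its call without untreated replicate 1 (log2 -0.90, adjusted p = 0.117), without either TSA library (adjusted p = 0.417 and 0.162) and under 2 other scalings (adjusted p = 0.0556 and 0.0533).

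In the input only 107 units had enough reads for a test. Of these, 2 rose and 1 fell, compared with 4.53% rising and 1.56% falling of all 7245 features tested, and the median change was -0.02 for the units and 0.00 for all features. novelncTU_147 rose in the input as well, from 4 and 9 reads to 49 and 27 (log2 2.13 ± 0.39, adjusted p = 0.00182). novelncTU_116, antisense to snf21, which encodes the ATPase of the RSC chromatin remodelling complex, rose from 0 and 2 reads to 7 and 10 (log2 1.94 ± 0.59, adjusted p = 0.0389), while its nascent RNA had 33, 37, 52 and 58 reads. This call was lost without untreated replicate 1 (adjusted p = 0.163), TSA replicate 1 (0.0653) or TSA replicate 2 (0.33), with both other pseudocounts and with TMM scaling. novelncTU_252, antisense to SPAC11D3.17, fell from 10 and 6 reads to 2 and 1 (log2 -1.77 ± 0.50, adjusted p = 0.0285) and also fell on the spike-in scale in nascent RNA (131 and 158 to 40.8 and 64.7 normalised reads, 2.61-fold). Its input call was lost when any 1 of the 4 input libraries was left out (adjusted p = 0.0690 to 0.131) and with 4 times the pseudocount.

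Of the 38 units whose nascent RNA fell, 19 could be tested in the input, where novelncTU_252 was called lower and none higher, with a median change of log2 -0.38. The change of the nascent to input ratio could be tested for 103 units. Its median was -0.05, and none was called, as for all 7183 features tested (0% called). At an unadjusted p under 0.05 there were 14 such units and 692 such features in all. With a median of 0 to 1 input read per unit in each library, changes in the input were not detectable for most units at this depth.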

How the data were processed

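The deposited values hold NET-seq reads per feature from 8 libraries. According to the methods, adapters were trimmed by the authors (cutadapt) and unique Bowtie alignments with up to 1 mismatch were kept; the methods name the ASM294v2 genome, and the annotation of the tables is not given in the sources used here. The authors scaled each library by 1 factor, to S. cerevisiae ribosomal protein genes (IP) or to total reads (IP and input), so the deposited signal is in normalised reads; for 1 library per table the factor is 1 and the deposited values are raw counts. Whole reads were recovered for 100% of values (tolerance 0.001).

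Of 19343 rows, coding parts (10204) and duplicate pseudogene transcripts (28) were left out. Features whose mean exceeded the pseudocount, the 10th percentile of nonzero values (6.00 and 6.58 in the IP, 1.18 in the input), were tested with limma 3.58.1 (lmFit, eBayes with trend) on log2(value + pseudocount), 2 libraries against 2, with Benjamini-Hochberg adjustment over all tested features; fold changes are on that scale and understate those of low features. The ratio was the log2 difference of IP and input of a culture, each with its pseudocount added. Alternatives used edgeR 4.0.16 and DESeq2 1.42.0 on recovered reads. The fits were tested on simulated data. Units were named when among the 8 highest in untreated nascent level per nt, among the 12 largest called changes per direction on the spike-in scale (mean of 20 or more normalised reads), or called in the input or the ratio (up to 6 per direction). The members and lists were chosen with earlier results of these data known. p-values rest on 2 biological replicates per group. In both nascent comparisons they use the replicate spread common to features of similar level, not that of the single unit. In the input and the ratio, the unit's own spread enters as well. Reads of units that overlap another feature on their strand are shared with it.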

Additional observations from a re-analysis of the deposited data

How the results depend on the processing

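On the spike-in scale, 38 units fell and 1 rose. The counts of falls and rises were 14 and 0 with 4 times the pseudocount, 42 and 2 with 0.25 times it, 45 and 2 with edgeR, 20 and 0 with DESeq2, 14 and 4 with TMM scaling in edgeR, and 13 and 4 with median-ratio scaling. The last 2 scalings moved the median change of the units to -0.084 and -0.059, and that of all features from -0.42 to 0.01 and 0.00. Restricting the units to those with a mean of 20 or more normalised reads gave medians of -0.62 (spike-in) and -0.143 (total-read). With 1 library left out, falls ranged from 0 to 58, rises from 0 to 2 and the median from -0.58 to -0.18; 17 fell without untreated replicate 1, 58 without untreated replicate 2, none without TSA replicate 1 and 12 without TSA replicate 2. Of the 12 named falls, edgeR called 12, DESeq2 10, TMM scaling 10 and median-ratio scaling 10. The unit opposite pgk1 (novelncTU_201) missed the threshold with DESeq2 (log2 -2.17, adjusted p = 0.0893), TMM (0.0522) and median-ratio scaling (0.0502), and that opposite tdh1 (novelncTU_412) with DESeq2 (log2 -2.03, adjusted p = 0.0563). DESeq2 gave no adjusted p for novelncTU_129, nor in the input for novelncTU_116 and novelncTU_252.

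On the total-read scale, 17 units fell and 4 rose. These counts were 4 and 0 with 4 times the pseudocount; 26 units fell with 0.25 times it, 27 with edgeR and 11 with DESeq2. With 1 library left out the median ranged from -0.163 to 0.0543.

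In the input, 2 rose and 1 fell. The counts of rises and falls were 1 and 0 with 4 times the pseudocount and with DESeq2; 1 rose with 0.25 times the pseudocount, and 2 fell without the filter on low values, with edgeR and with TMM scaling. With 1 library left out, rises ranged from 1 to 2 and falls from 0 to 2. No unit was called for the ratio under any alternative.

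The labels do not say whether the replicate numbers pair untreated with TSA cultures, and same-numbered libraries did not deviate together (correlation of same-numbered deviations from the group means: -0.205 for the spike-in IP values, -0.242 for the total-read IP values, 0.0181 for the input). With the replicate number as a block, 14 units fell and 1 rose with spike-in scaling, 17 and 4 with total-read scaling, and 3 fell and 2 rose in the input. With the numbers crossed, an alternative added after seeing the data, 38 fell and 1 rose with spike-in scaling, and 17 and 4 with total-read scaling. Leaving out units with stable RNA, also added later, left medians of -0.39, -0.04 and -0.02 in the 3 comparisons, and counting any overlap of 1 nt as antisense changed no count of antisense units by over 1.5 times. Depth limits all counts, since the median unit had 9 to 14 nascent reads and 0 to 1 input read per library.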

Other observations

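The sequence TNAAAC, the core of the element through which the YTH-domain protein Mmi1 selects meiotic transcripts for elimination, was searched in the first 200 nt of each unit on its own strand. It was present in 96 of 346 units (27.7%), compared with 27.2% on the other strand of the same windows, 33.4% of XUTs, 34.6% of annotated ncRNA genes and 33.4% of all kept features of 200 nt or more. GC content differs between these classes and was not adjusted for.

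Later annotation covers part of the units. A RefSeq long non-coding RNA on the same strand covered 50% or more of the length of 154 of 346 units, and in 37 of them the overlap also made up 50% or more of that RNA. On the spike-in scale, 14 of 86 tested units of this kind fell and 1 rose, and 24 of 121 of the others fell. For 16 units there was no overlap with any feature on their strand or with a gene, pseudogene, XUT or annotated non-coding RNA on the other. Other nc-TUs on the other strand were not checked. Only 4 units lay within 100 kb of a chromosome end.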
